A study of Mus musculus with 14 samples.

Results

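Tight junctions are held together by a small set of membrane proteins and their cytoplasmic adaptors, and 8 of those genes are described here: the claudins Cldn1, Cldn3, Cldn4, Cldn7 and Cldn23, the occludin gene Ocln, the junctional adhesion molecule gene F11r (JAM-A) and Tjp1, which encodes the scaffold protein ZO-1. They were taken as a list of names and looked up in both gene tables of the study, where 8 of 8 were found among 27179 genes for cultured keratinocytes and among 24411 genes for epidermis, and 8 of 8 passed the filter on low counts in each. The mice were newborn and differed in exon 13 of Trp63, the gene of the epidermal transcription factor p63. The p63alpha group was Trp63-Ex13fl/fl, with the floxed exon intact and no Cre. The p63beta group was KRT14-Cre;Trp63-Ex13fl/fl, so the same floxed alleles plus a recombinase driven by the KRT14 promoter, which is active in basal keratinocytes. Cells of the skin that never used that promoter keep the exon. Trypsin was used to lift epidermis from dermis in every group, and the tissue gave 4 libraries per genotype. Primary keratinocytes from such epidermis, grown in medium with 0.05 mM calcium chloride and 8% chelated serum and described as proliferating, gave 3 per genotype. Nothing in the labels ties a library to its own animal, so a p-value here measures only the spread between libraries, which may be technical.

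Claudins span the membrane and pair across the gap between cells, and which claudins a cell makes sets how tightly and for which ions the gap is sealed. Occludin and JAM-A sit beside them, and ZO-1 ties all of them to actin. In skin the working tight junctions lie in the granular layer, claudin-1 is needed for the water barrier of newborn mice, and calcium in the medium drives cultured keratinocytes to assemble junctions, which low calcium holds back.

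Each keratinocyte library held between 20688027 and 30066041 counted read pairs, and each epidermis library between 21290056 and 44909616 estimated counts. Trp63, the targeted gene, was at 193, 179 and 179 CPM (counts relative to the TMM-scaled library total) in p63alpha keratinocytes and at 343, 358 and 390 CPM in p63beta, and at 259 to 631 CPM in p63alpha against 545 to 765 CPM in p63beta epidermis. A count over the whole gene does not see the removed exon, so it is no check of the labels. Markers of basal keratinocytes (6 genes) summed to 21728 to 34111 CPM in culture and to 7613 to 18642 CPM in tissue. Markers of suprabasal keratinocytes (5 genes) summed to 371 to 1177 CPM in culture and to 81913 to 160110 CPM in tissue. The basal sum thus led in culture and the suprabasal sum in tissue. The basal genes did not all go one way. Krt5 was higher in culture, at 12326 to 20013 CPM against 3377 to 8784 CPM. Krt15 was higher in tissue, at 427 to 2325 CPM against 0.81 to 6.19 CPM. One cultured library, p63beta library 3, stood apart with 3021 CPM over 8 heart muscle genes, against 103 to 205 CPM in the other 5.

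In cultured keratinocytes the fitted level of each of the 8 genes was lower in p63beta than in p63alpha, and none passed the test. The log2 fold changes, p63beta over p63alpha, ran from -0.90 to -0.09 with a median of -0.26, where the median of all 13820 genes tested was -0.00135 and 50.3% of them were below 0. The test was edgeR's quasi-likelihood F test with Benjamini-Hochberg adjustment over all genes, and called means an adjusted p below 0.05. It called 14 genes in all, which is 0.101% of those tested, or 37 with the replicate number of the labels as a block, and 0 of the 8 genes in either fit. For 5 of the 8 (Cldn1, Cldn3, Cldn4, Ocln and F11r) all p63beta libraries lay below all p63alpha libraries, an ordering seen in 5.8% of all genes tested. Without p63beta library 3 the same count was 5 against 8.31% of all genes. An unadjusted p under 0.05 with a lower level was found for 3 of the 8 (Cldn3, Cldn4 and Ocln) and for 2.77% of all genes. The genes were chosen with earlier results of these libraries known, so these shares describe the libraries only. Some marker sums also separated the genotypes in culture. Those of the granular layer (5 genes) were 81.9 to 148 CPM in p63beta and 25.9 to 76.0 CPM in p63alpha. Those of endothelium (6 genes) were 11.6 to 36.3 CPM in p63beta and 4.95 to 10.8 CPM in p63alpha. Of the genes tested in these sets, only Ivl and Pecam1 had groups without overlap (log2 fold changes 1.47 and 1.85). The other granular genes tested, Flg, Tgm3 and Lor, were at 0.37, 0.03 and -0.13. The other endothelial ones, Tek and Kdr, were at 1.94 and -0.10. The part of such cells in the values of the 8 genes was not tested.

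**Figure D1:**
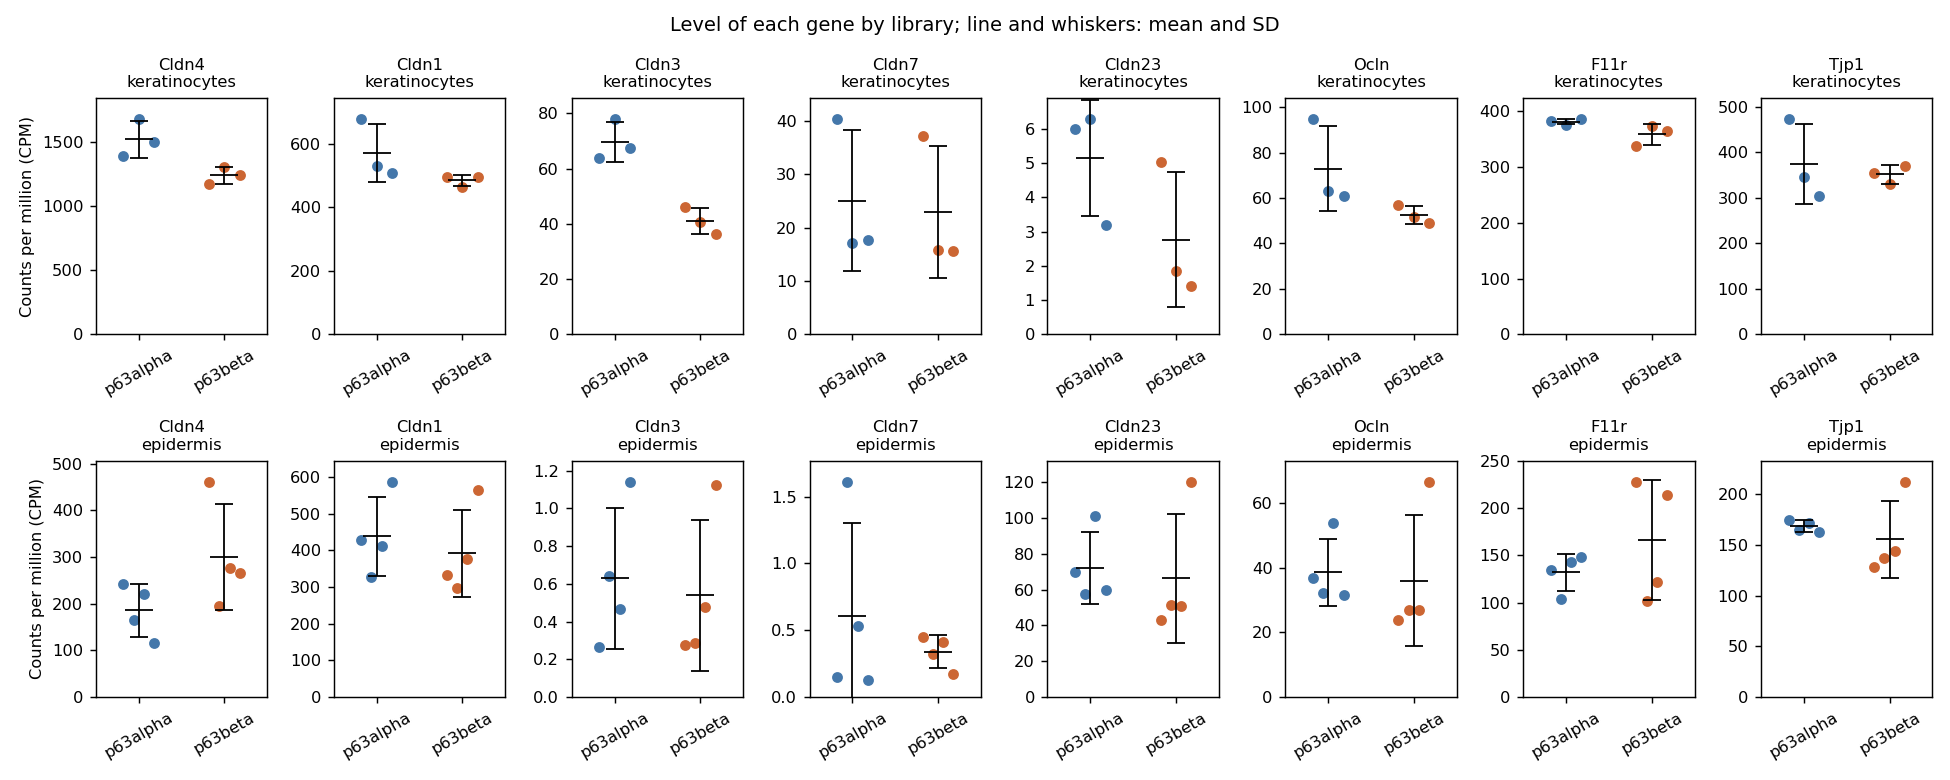
CPM (linear axis from 0, one scale per panel) of the 8 genes in each library of cultured keratinocytes (upper row, 3 per genotype) and epidermis (lower row, 4 per genotype), with the mean and SD as a line and whiskers. In culture the p63beta points of Cldn3 lie between 36.5 and 45.9 CPM, below all p63alpha points at 63.9 to 77.8 CPM, while in epidermis the genotypes overlap in every panel.

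Cldn3 and Cldn4 are neighbours, with start sites 39280 bases apart on chromosome 5 (mm10). Cldn3 (Entrez 12739) is a gene of 1 exon from 134986214 to 134987476 on the plus strand, and Cldn4 (Entrez 12740) is a gene of 1 exon from 134945123 to 134946934 on the minus strand. Both encode sealing claudins of simple epithelia. Their promoter sequences are shown because these genes had the lowest p-values among the 5 listed claudins in culture, and that of F11r because it shares a motif with Cldn4. Each is the RefSeq window of GRCm38.p6 from 250 bases before to 50 bases after the start site, 5′ to 3′ on the gene's strand, and capitals mark the AP-1 motif TGANTCA, whose 2 strands read alike. AP-1 is the FOS and JUN family of transcription factors.
Cldn4, chr5:134946885-134947184, minus strand: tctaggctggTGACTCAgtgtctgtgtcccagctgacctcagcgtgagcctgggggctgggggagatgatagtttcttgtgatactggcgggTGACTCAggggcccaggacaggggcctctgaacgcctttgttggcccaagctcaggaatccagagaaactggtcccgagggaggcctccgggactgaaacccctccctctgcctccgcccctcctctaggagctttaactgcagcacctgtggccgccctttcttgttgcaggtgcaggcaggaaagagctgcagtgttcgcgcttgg
Cldn3, chr5:134985964-134986263, plus strand: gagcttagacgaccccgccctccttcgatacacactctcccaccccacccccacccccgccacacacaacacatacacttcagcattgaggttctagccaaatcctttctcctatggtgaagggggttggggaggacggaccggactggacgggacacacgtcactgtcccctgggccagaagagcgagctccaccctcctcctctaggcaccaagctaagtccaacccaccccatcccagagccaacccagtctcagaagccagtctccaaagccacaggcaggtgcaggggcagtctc
F11r, chr1:171437311-171437610, plus strand: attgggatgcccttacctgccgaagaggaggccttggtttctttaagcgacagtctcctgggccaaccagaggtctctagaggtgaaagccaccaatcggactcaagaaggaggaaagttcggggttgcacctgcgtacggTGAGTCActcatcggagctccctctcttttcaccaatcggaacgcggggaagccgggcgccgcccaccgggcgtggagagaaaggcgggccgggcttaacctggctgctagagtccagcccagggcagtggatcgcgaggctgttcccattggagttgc
The Cldn4 window holds the motif 2 times, beginning at -240 and -158 from the start site, the F11r window holds it once, at -109, and the Cldn3 window does not hold it. Of 32851 mouse windows of this length, 7.81% hold it. RefSeq windows were matched for 7 of the 8 genes, 9 windows in all, and the AP-1 motif was in no other of them. A Grainyhead-like motif (AACNGGTT, both strands, 2.09% of windows), which is bound by factors of epidermal differentiation, was in none of the 9. The p53 family half-site, which p63 can bind, was in 1 of them, at -35 of Tjp1, and in 8.36% of all windows. No TATAAA (both strands, 13.6% of all windows) was found in the 9. The GC box GGGCGG (both strands, 35.7% of all windows) was in each of them except 1 window of Cldn7. These motifs are letters in a window and were not measured as bound.

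Cldn4 was the most abundant of the 8 in culture. It measured 1389, 1678 and 1503 CPM in p63alpha libraries 1, 2 and 3 and 1177, 1311 and 1241 CPM in p63beta libraries 1, 2 and 3. The groups did not overlap, and the p63beta mean was 81.6% of the p63alpha level in the fit. That is a log2 fold change of -0.29 ± 0.11 (SE, unadjusted p 0.0345, edgeR adjusted p 0.667).

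Cldn3 showed the lowest p of the 8 and ranked 47 by p among all genes tested. It measured 63.9, 77.8 and 67.6 CPM in p63alpha and 45.9, 40.7 and 36.5 CPM in p63beta, so the highest p63beta library was below the lowest p63alpha library. The fitted level in p63beta was 58.8% of that in p63alpha, a log2 fold change of -0.77 ± 0.12 (SE, unadjusted p 6.0e-04), and with an edgeR adjusted p of 0.176 it was not called. The call turned on the tool. DESeq2 gave -0.77 with an adjusted p of 3.10e-05 and called 224 of 13820 genes. The authors' deposited table, made with that tool, lists Cldn3 at -0.7 with an adjusted p of 2.96e-05. Its log2 fold changes for keratinocytes are shrunken towards 0, so they are not on the scale of the fits made here. In the authors' deposited table Cldn3 was the only one of the 8 under 0.05, and the other 7 ran from -0.4 to -0.06. Among all 13901 keratinocyte genes given an adjusted p by the authors, 208 were under 0.05.

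Cldn1 (Entrez 12737, chromosome 16, 26356645 to 26371839), the claudin of the epidermal barrier, was the second most abundant claudin in culture. It measured 677, 529 and 507 CPM in p63alpha and 496, 464 and 494 CPM in p63beta. The groups did not overlap, but the gap from 507 to 496 CPM was small beside the p63alpha SD of 92.5 CPM, and the log2 fold change of -0.24 ± 0.13 (SE) had an edgeR adjusted p of 0.819. Cldn7 (Entrez 53624, chromosome 11, 69964779 to 69967886), a claudin also found along the sides of epithelial cells, measured 40.3, 17.2 and 17.7 CPM in p63alpha and 37.2, 15.7 and 15.7 CPM in p63beta. Library 1 of each genotype stood far above the others, and the groups overlapped (log2 fold change -0.13 ± 0.49 SE, edgeR adjusted p 0.984). Cldn23 (Entrez 71908, chromosome 8, 35824709 to 35826559, 1 exon), a claudin of differentiated epithelial cells, was the least abundant. It measured 5.99, 6.27 and 3.19 CPM in p63alpha and 5.02, 1.86 and 1.40 CPM in p63beta, from 40 to 189 counts a library. Its log2 fold change was the furthest from 0 of the 8, at -0.90, but so was its SE, at 0.55 (edgeR adjusted p 0.848), and library 1 of p63beta lay above library 3 of p63alpha.

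Ocln (Entrez 18260, chromosome 13, 100497367 to 100552498) measured 94.6, 63.3 and 61.1 CPM in p63alpha and 56.8, 51.5 and 49.2 CPM in p63beta. The groups did not overlap, with a log2 fold change of -0.48 ± 0.18 (SE, unadjusted p 0.0397, edgeR adjusted p 0.699). F11r (Entrez 16456, chromosome 1, 171437561 to 171464593) was the steadiest, at 382, 376 and 385 CPM in p63alpha and 337, 373 and 365 CPM in p63beta. Its groups were barely apart, at 376 against 373 CPM, and the log2 fold change of -0.09 ± 0.08 (SE) had an edgeR adjusted p of 0.922. Tjp1 (Entrez 21872, chromosome 7, 65296165 to 65371244) measured 472, 345 and 304 CPM in p63alpha and 355, 330 and 370 CPM in p63beta. The p63alpha libraries spanned the whole p63beta range, with a log2 fold change of -0.09 ± 0.17 (SE, edgeR adjusted p 0.973).

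Across genes, libraries numbered 1 and 2 varied most closely with the library of the same number in the other genotype. Library 3 varied with its own partner (r 0.193) hardly more than with number 2 (0.178 and 0.177). Each gene was also read within its number, as the labels give it. Of the 8 genes, 7 were lower in p63beta in all 3 numbers, as were 19.3% of all genes tested. The exception was Tjp1, which was higher by 0.28 on the log2 scale in number 3. Cldn3 was lower by similar steps in numbers 2 and 3 (-0.93 and -0.89) and by a smaller one in number 1 (-0.48). Cldn4 differed by -0.24, -0.36 and -0.28. Cldn7, whose level in library 1 set it apart in both genotypes, differed by -0.12, -0.13 and -0.17 within numbers. With the number as a block, the edgeR adjusted p of Cldn3 was 0.105, still above the threshold.

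**Figure D2:**
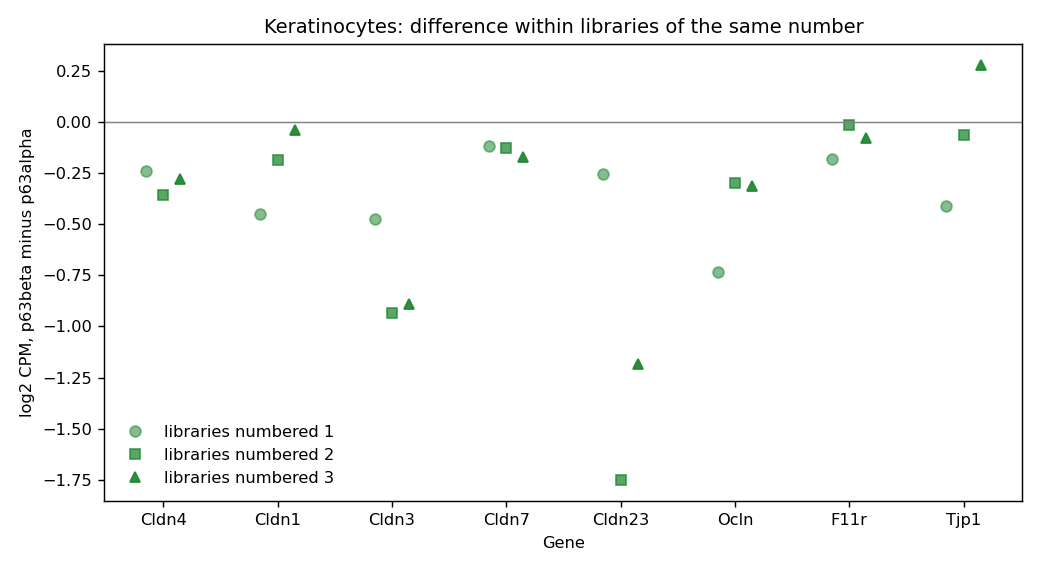
Log2 CPM in p63beta minus p63alpha keratinocytes within libraries of the same number, for each of the 8 genes (3 points a gene, line at 0). Every point lies below 0 apart from Tjp1 in number 3 at 0.28, where 19.3% of all genes tested were lower in all 3 numbers, and Cldn23 spreads from -0.25 to -1.75.

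Epidermis gave another picture, in which 6 of the 8 had a log2 fold change below 0, as did 50.7% of all genes tested, 2 had one above 0, and the genotypes overlapped for each gene. Again 0 of the 8 were called, against 32 of 13796 genes tested, or 0.232%, and groups without overlap were found for 3.07% of all genes. An unadjusted p under 0.05 was found for 1 of the 8, Cldn4, and for 4.64% of all genes. The edgeR adjusted p was 0.9999 for each of the 8. In these bulk libraries fewer cells of a type and less RNA per cell cannot be told apart. The p63alpha libraries are EP07, EP08, EP09 and WT3 and the p63beta libraries EP10, EP11, EP12 and KO2, as the columns name them.

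Cldn4 was the member with the lowest p in tissue, and its direction was opposite to culture. In p63alpha it measured 242 CPM in EP07, 165 in EP08, 117 in EP09 and 222 in WT3. In p63beta it measured 194 CPM in EP10, 276 in EP11, 267 in EP12 and 461 in KO2. Each p63beta library lay above the p63alpha mean of 186 CPM, but EP10 was below 2 p63alpha libraries. The log2 fold change was 0.68 ± 0.29 (SE, unadjusted p 0.0421), and in the authors' deposited table it was 0.69 with an adjusted p of 0.712. F11r followed at 134, 104, 148 and 143 CPM in EP07, EP08, EP09 and WT3 and at 101, 121, 214 and 227 CPM in EP10, EP11, EP12 and KO2 (0.33 ± 0.26 SE). Only EP12 and KO2 were above the p63alpha range, and EP10 was below it.

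Cldn1, the leading claudin of p63alpha tissue, measured 429, 328, 586 and 412 CPM in EP07, EP08, EP09 and WT3 and 297, 377, 564 and 332 CPM in EP10, EP11, EP12 and KO2. Each genotype spread widely, from 328 to 586 CPM in p63alpha and from 297 to 564 CPM in p63beta. The log2 fold change was -0.16 ± 0.24 (SE). Tjp1 was even in p63alpha, from 162 to 175 CPM, and measured 137, 144, 212 and 128 CPM in EP10, EP11, EP12 and KO2, so 3 of the p63beta libraries were below that range and 1 above it (-0.12 ± 0.17 SE). Cldn23 measured 69.8, 57.8, 59.8 and 101 CPM in EP07, EP08, EP09 and WT3 and 51.2, 50.9, 120 and 43.3 CPM in EP10, EP11, EP12 and KO2 (-0.12 ± 0.33 SE). Ocln measured 36.8, 32.1, 31.6 and 53.8 CPM in EP07, EP08, EP09 and WT3 and 26.9, 27.0, 66.5 and 23.7 CPM in EP10, EP11, EP12 and KO2 (-0.10 ± 0.34 SE). For Cldn23 and Ocln alike, EP10, EP11 and KO2 were below every p63alpha library and EP12 above every one.

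Cldn3 and Cldn7 had few counts in tissue. Cldn3 had 7 to 27 counts a library, or 0.26 to 1.14 CPM in p63alpha and 0.27 to 1.13 CPM in p63beta. Cldn7 had 3 to 50 counts, 0.13 to 1.61 CPM in p63alpha and 0.17 to 0.45 CPM in p63beta. The log2 fold changes had wide errors, -0.22 ± 0.61 for Cldn3 and -0.81 ± 0.77 for Cldn7 (SE), and those errors are close to the size of the difference seen for Cldn3 in culture.

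**Figure D3:**
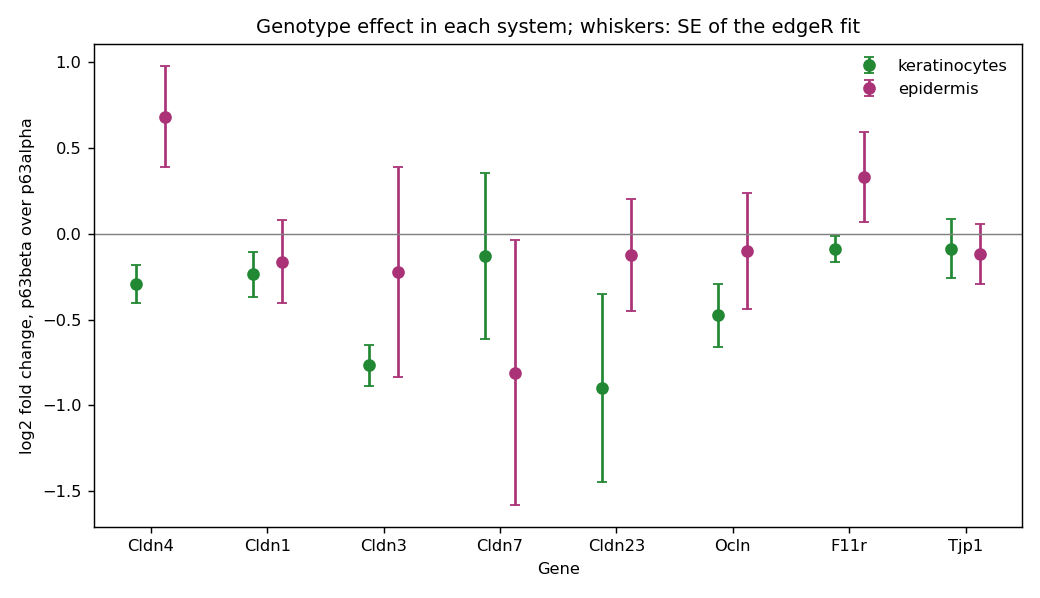
Log2 fold change of each gene, p63beta over p63alpha, in keratinocytes (3 against 3 libraries) and epidermis (4 against 4), with a line at 0. Whiskers are the SE worked back from the F statistic of the edgeR fit. All 8 keratinocyte points are below 0, and in epidermis Cldn4 at 0.68 and F11r at 0.33 are above it.

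Whether the genotype effect differed between tissue and culture was tested with an interaction term over all 14 libraries. No gene of 14741 was called by edgeR, which is 0%, with 618 at an unadjusted p under 0.05 (4.19%), and DESeq2 called 13. Cldn4 gave the lowest p of the 8, with an effect in epidermis above that in culture by 0.998 ± 0.40 on the log2 scale (SE, unadjusted p 0.0262, edgeR adjusted p 0.9999). The other 7 differences ran from -0.65 for Cldn7 to 0.79 for Cldn23, each within 1.5 times its SE of 0. The opposite signs of Cldn4 in culture and tissue are therefore values that this test did not separate.

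The 8 tissue libraries carry 2 kinds of names, and WT3 and KO2 carry other run names in the deposited column headers than the EP-numbered ones. Among the EP-numbered libraries alone (3 against 3), Cldn4 was still higher in p63beta, with means of 246 and 175 CPM, and Cldn23 and Ocln turned from a negative to a positive log2 fold change (0.24 and 0.26, edgeR adjusted p 0.9994 each). In the single remaining pair, KO2 against WT3, Cldn23 was at 43.3 against 101 CPM and Ocln at 23.7 against 53.8 CPM, and Cldn4 was at 461 against 222 CPM. Among the EP-numbered libraries EP10 and EP11 were below, and EP12 above, every p63alpha library for both genes, so the positive sign there came with EP12.

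Across the tissue libraries Cldn23, Ocln and Tjp1 varied together. Over 8 libraries the correlation of log2 CPM was 0.998 for Cldn23 with Ocln, 0.907 for Cldn23 with Tjp1 and 0.912 for Tjp1 with Ocln, values given as a description of 8 libraries normalised together, of which WT3 and KO2 carry other run names. EP12 was the highest and KO2 the lowest for all 3 genes. Cldn4 did not follow them (-0.11 with Cldn23). EP12 and WT3, the libraries with the most Cldn23 and Ocln, had the lowest sums of the 6 basal keratinocyte markers. The sums were 7613 and 8770 CPM there, against 12391 to 18642 CPM in the other 6 libraries. The 6 markers did not move as a set. Krt5 was highest in EP10, Krt14 in KO2, Krt15, Itga6 and Itgb4 in EP09, and Trp63 in EP12, at 765 CPM. Suprabasal marker sums did not mark the same libraries, since WT3 was the highest at 160110 CPM and EP12 was at 106895 CPM. Granular marker sums (4 genes) were highest in KO2, at 16735 CPM against 7421 to 13084 CPM in the other 7. KO2 was the library with the most Cldn4 and the least Cldn23, Ocln and Tjp1. Of the KO2 sum, Lor alone held 15798 CPM. Flg2 was highest in EP12 (1555 CPM), and Ivl and Tgm3 in WT3 (758 and 350 CPM). Melanocyte marker sums (5 genes) separated the genotypes, at 294 to 431 CPM in p63beta and 106 to 234 CPM in p63alpha, and 5 of 5 of these genes had an unadjusted p under 0.05 and none an edgeR adjusted p below it. The part of melanocytes and of layer composition in these values was not tested. In culture, over 6 libraries, the correlation was 0.965 for Cldn1 with Ocln and 0.867 for Cldn3 with Cldn4, and that of Cldn23 with Ocln was 0.724.

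**Figure D4:**
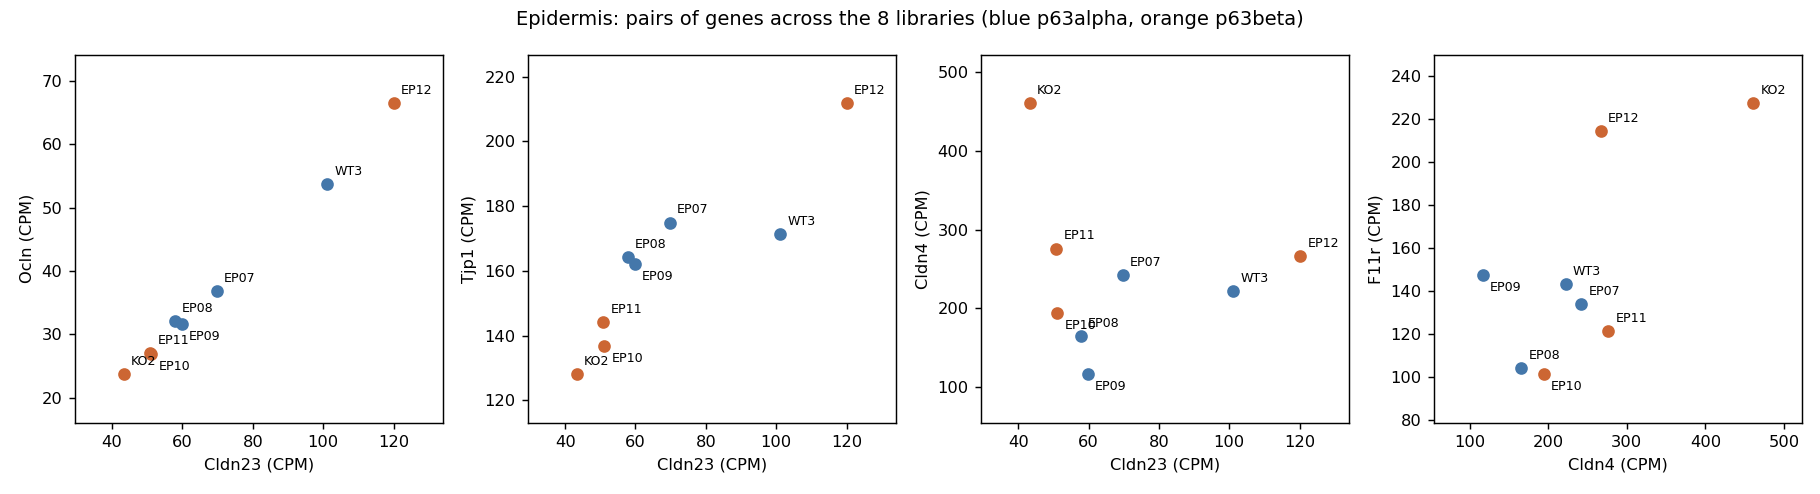
CPM of 4 pairs of genes across the 8 epidermis libraries, p63alpha in blue and p63beta in orange, each point marked with its library name (axes do not start at 0). Ocln follows Cldn23 from KO2 at 43.3 CPM to EP12 at 120 CPM of Cldn23, while Cldn4 is highest in KO2 at 461 CPM.

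Culture and tissue differed far more than the genotypes did in which claudins were present. To compare levels between genes, values per length were used, as TPM (a gene's length-corrected share of all transcripts) over the 23395 genes found in both tables, and since the tables came from different quantification tools no test was made between them. In p63alpha culture Cldn4 stood at 1937 ± 173 TPM (SD, n = 3) and made up 76.9% ± 3.8 of the summed TPM of the 5 claudins. In p63alpha epidermis Cldn1 led with 235 ± 74.1 TPM (SD, n = 4), or 47.7% ± 10.9 of that sum, Cldn4 followed with 182 ± 44.0 TPM and 37.7% ± 9.4, and Cldn23 held 14.2% ± 2.8. In p63beta epidermis Cldn4 was ahead with 270 ± 70.1 TPM against 196 ± 67.6 TPM for Cldn1, and in both genotypes the ranges of these 2 genes overlapped. The sum of the 5 claudins was 2516 ± 137 TPM in p63alpha and 2074 ± 42.3 TPM in p63beta culture, without overlap, and 487 ± 51.2 and 529 ± 108 TPM in tissue, with overlap.

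Cldn23 was the 1 gene of the 8 that was higher in tissue, at 68.5 ± 9.67 TPM against 6.41 ± 2.13 TPM in p63alpha culture, 10.7 times the culture level. Cldn3 was lower in tissue, with 127 ± 12.4 TPM in culture and 0.97 ± 0.66 TPM in tissue, a 131-fold difference. Cldn7 was at 39.8 ± 21.3 TPM in culture and 0.888 ± 1.097 TPM in tissue. The median gene was itself lower in tissue on this scale, by -0.71 on the log2 scale over 12666 genes in p63alpha and by -0.85 in p63beta. Relative to that median the p63alpha log2 ratios, tissue over culture, were 4.13 for Cldn23, -0.08 for Cldn1, -0.66 for Ocln, -0.86 for Tjp1, -1.21 for F11r, -2.70 for Cldn4, -4.77 for Cldn7 and -6.32 for Cldn3. Cldn1 thus held its place among all genes (percentile 98.4 in culture and 97.9 in tissue), and the sign of its unadjusted ratio turned with the scale, from -0.79 here to 0.42 with the deposited FPKM and TPM. Libraries of culture and tissue did not overlap for any of the 8 in either genotype on the rescaled values. How many of all genes did likewise was not computed, so this does not set the 8 apart.

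**Figure D5:**
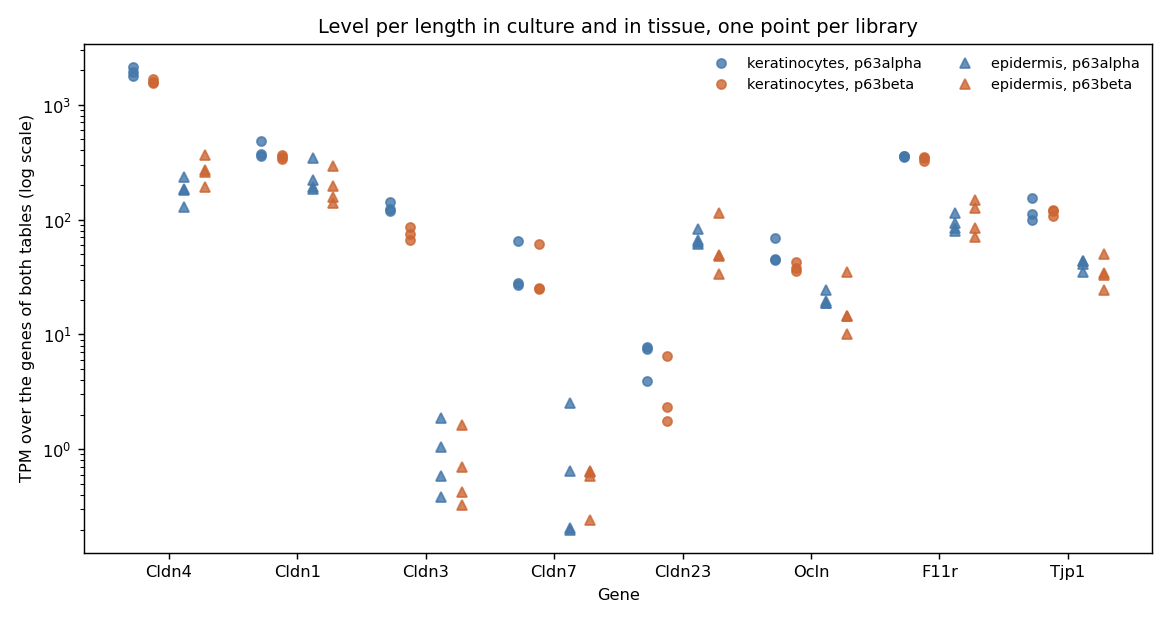
Level per length of each gene (TPM over the genes of both tables, log axis) in every library of keratinocytes (circles) and epidermis (triangles), p63alpha in blue and p63beta in orange. Cldn23 is the gene whose triangles lie above its circles, and the triangles of Cldn3 and Cldn7 lie at 2.50 TPM or less, below every circle of the same gene.

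The order of the 8 by length-scaled level in p63alpha culture was Cldn4, Cldn1, F11r, Cldn3, Tjp1, Ocln, Cldn7 and Cldn23. Neighbours whose ranges overlapped there were Cldn3 with Tjp1 (127 and 121 TPM) and Ocln with Cldn7 (52.8 and 39.8 TPM). In p63beta culture Cldn3 and Tjp1 no longer overlapped, at 76.2 ± 9.98 and 116 ± 6.90 TPM (SD, n = 3 each), while Cldn1 and F11r did (351 and 338 TPM). In p63alpha tissue the order was Cldn1, Cldn4, F11r, Cldn23, Tjp1, Ocln, Cldn3 and Cldn7. Overlaps between neighbours were those of Cldn1 with Cldn4, F11r with Cldn23 (93.1 and 68.5 TPM) and Cldn3 with Cldn7.

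The epidermis files also give transcripts, and for 6 of the 8 genes the table lists 1 transcript only. Tjp1 has 2. The transcript NM_001163574 carried 76.5% ± 1.7 of the Tjp1 TPM in p63alpha and 78.6% ± 3.7 in p63beta, and NM_009386 carried 23.5% ± 1.7 and 21.4% ± 3.7 (SD, n = 4 each). The shares overlapped, from 74.7% to 78.8% in p63alpha and from 74.3% to 83.1% in p63beta for NM_001163574. Neither transcript was called (log2 fold changes -0.09 ± 0.15 and -0.23 ± 0.27 SE, edgeR adjusted p 0.9997 each), against 10 of 18270 transcripts or 0.0547%. Cldn7 also has 2 transcripts, both too low in tissue to pass the filter, with means of 0.89 and 0.25 TPM for NM_016887 and of 0 and 0.27 TPM for NM_001193619 in p63alpha and p63beta.

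Of 111 other names of junction genes and their regulators, 104 were in the keratinocyte table and 81 were tested there, with 0 called, 55 negative and 26 positive log2 fold changes and a median of -0.09. Groups did not overlap for 9 lower and 1 higher of the 81, where 5.8% and 6.51% of all genes tested did so. In epidermis 76 were tested, with 0 called, 38 positive, 38 negative and none without overlap. Among the other claudins Cldn12 was the only one above 5 CPM, at 89.2 CPM over the culture libraries and 24.6 CPM over the tissue libraries, with log2 fold changes of -0.07 ± 0.15 and 0.01 ± 0.16 (SE). Cldn6, a claudin of embryonic epithelia, was low in culture, at 2.08, 1.76 and 1.05 CPM in p63alpha and 0.57, 0.87 and 0.46 CPM in p63beta. Its groups did not overlap, with a log2 fold change of -1.37 ± 0.42 (SE, edgeR adjusted p 0.566). Cldn8 was higher in tissue than in culture, at 1.80 to 4.89 CPM against 0.21 to 0.56 CPM.

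In the membrane list Marveld2, which encodes the tricellular junction protein tricellulin, was lower in p63beta culture without overlap (-0.40 ± 0.13 SE, edgeR adjusted p 0.616). The genes of the endothelial adhesion molecules JAM-B (Jam2) and ESAM were high in 1 library. Jam2 was at 17.3 CPM in p63beta library 3 against at most 0.76 CPM in the other 5, and Esam was at 3.36 CPM there against at most 0.46 CPM. That library also had the highest endothelial marker sum, 36.3 CPM, besides its heart muscle RNA, and the other p63beta cultures were at 11.6 and 12.8 CPM against 4.95 to 10.8 CPM in p63alpha. The part of such cells in other values was not tested. Among the plaque proteins Cgn (cingulin) was lower without overlap (-0.32 ± 0.10 SE, edgeR adjusted p 0.605). Tjp3, which encodes ZO-3, was at 0.42 to 1.93 CPM in culture and at 57.7 to 127 CPM in tissue, the same direction as Cldn23. Among the adherens junction genes Nectin4 (-0.40 ± 0.10 SE, edgeR adjusted p 0.447) and Cdh1, which encodes E-cadherin (-0.30 ± 0.12 SE, edgeR adjusted p 0.728), were lower in p63beta culture without overlap. Among the regulators Grhl1, a Grainyhead-like factor of the epidermis, had the lowest p in culture (-0.48 ± 0.12 SE, edgeR adjusted p 0.449), and in tissue Grhl3 (0.63 ± 0.32 SE) and Ovol1 (0.63 ± 0.33 SE) had the lowest p, with an edgeR adjusted p of 0.9999 each. In the polarity list Prkcz, a kinase of the PAR complex, was lower in p63beta culture without overlap (-0.41 ± 0.13 SE, edgeR adjusted p 0.577). The most abundant genes of their lists included Cdh1, Amotl2, Cdc42 and Lsr in culture and Jup, Klf4, Ybx3, Tiam1 and Lsr in tissue, with log2 fold changes between -0.30 and 0.24. None of these passed the test.

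The genes whose log2 CPM, centred on each system, followed a member most closely over the 14 libraries were found among 12068 genes tested in both systems. For Cldn4 they included Rpp21 and Thap4 (Pearson r 0.963 and 0.928), and for Cldn1 they were Napg, Ggps1 and Trim56 (0.925, 0.917 and 0.910). For Cldn3 they were Cep95, Iqce and Vamp1 (0.834, 0.834 and 0.827), and for Tjp1 they were Mctp2, Mpp5 and Hipk2 (0.927, 0.903 and 0.900). Mpp5 encodes PALS1, a polarity scaffold of tight junctions. These are the highest of 12068 values for each member over 14 libraries normalised together within each system, and they are given as a description.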

How the data were processed

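RNA libraries were prepared from 6 keratinocyte cultures and 8 epidermis samples with a stranded mRNA kit, per the labels' protocols. The keratinocyte files are counts that the authors made with featureCounts 1.5.2 (strand setting 2, minimum overlap 25 bases, per the file headers) and FPKM deposited beside them. The epidermis files are expected counts and TPM that the authors deposited at gene and transcript level, and per the submitters' processing notes Salmon was among the tools and mm10 was the build. The authors' deposited DESeq2 tables list adjusted p-values beside log2 fold changes, which are shrunken for keratinocytes. Their 14 per-library columns were not used. Tool versions other than that of featureCounts are not given in the sources used here.

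Columns of the epidermis files named WT and KO were read as p63alpha and p63beta, as the header of the keratinocyte counts ties those words to the genotypes. Symbols were joined to Entrez IDs through RefSeq accessions. Separate fits were made for each system in R 4.3.3 with edgeR 4.0.16 (TMM, filterByExpr by group with a minimum count of 10, robust quasi-likelihood F test), after rounding the expected counts to whole numbers. The interaction was fitted over all 14 libraries. The SE beside an edgeR log2 fold change is its absolute value divided by the square root of the F statistic. CPM are scaled by the TMM factors. Likeness used log2(CPM + 0.1).

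In keratinocytes, deviations from the group means correlated between libraries of the same number by 0.587, 0.511 and 0.193 over 12629 genes. Between numbers 2 and 3 they correlated by 0.178 and 0.177, and between number 1 and the others by -0.527 to -0.268. The check thus matched numbers 1 and 2 with their own partners, but did not set number 3 apart from number 2. Libraries were paired by the replicate numbers of the labels, and for number 3 the pairing rests on the labels alone. No 2 libraries held identical values.

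The members and lists were chosen with earlier results of these data known. All 8 members are described, and of the other lists examples of the called genes, the 3 genes with the lowest p and the most abundant. Some genes that this rule gives are not reported here. Alternatives were RLE size factors, no filter, no robust estimation, DESeq2 1.42.0, limma 3.58.1 on log2 values of FPKM or TPM (pseudocounts 1 and 0.1), leaving out each library, the replicate block, a term for the kind of library name and other scales. The count of genes without overlap, leaving out p63beta library 3, was added after seeing the data. The edgeR and DESeq2 fits were tested on simulated data. Of genes given a log2 change of 1, edgeR called 45% in keratinocytes, 28% in epidermis and 8% in the interaction. A gene that was not called is thus not shown to be unchanged. The simulated keratinocytes held 13820 genes, 200 of them changed, and were drawn with edgeR's dispersions. Among the unchanged genes, edgeR called 7 and DESeq2 55. How many changed genes DESeq2 called was not recorded.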

Additional observations from a re-analysis of the deposited data

Results flagged for a closer look

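Among the 16 groups of 4 epidermis libraries checked (8 genes in 2 genotypes), 2 held a library far from the other 3. Cldn23 in p63beta library EP12 was at 120 CPM, against 43.3 to 51.2 CPM in EP10, EP11 and KO2. Ocln in the same library was at 66.5 CPM, against 23.7 to 27.0 CPM in those 3. Chance marks about 1 in 20 groups in this way, and these 2 genes varied together over the 8 libraries, so they are not separate events. EP12 also had the lowest sum of basal keratinocyte markers, 7613 CPM, but the highest level of Trp63, 1 of those markers, at 765 CPM. The part of basal cells in both values was not tested.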

How the results depend on the processing

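None of the 8 genes was called in either system under any edgeR or limma alternative run. DESeq2 called Cldn3 in keratinocytes and none of the other 7 there or in epidermis. Between p63beta and p63alpha keratinocytes edgeR called 14 genes, which became 224 with DESeq2, 37 with the replicate block (13 of them shared), 8, 9 and 4 with limma on log2(FPKM + 1), log2(FPKM + 0.1) and log2(FPKM + 1) without a filter, and 1 to 4 with any 1 of the 6 libraries left out. In epidermis 32 became 141 with DESeq2, 8 with the EP-numbered libraries alone, 19, 19 and 8 with the same limma settings on TPM, and 10 to 28 without 1 library, with the lowest without EP07 and 16 to 19 without EP08, EP10, EP11 or KO2. No paired analysis was possible because the epidermis columns carry no replicate number. The interaction stayed at 0 called genes apart from 13 with DESeq2, and the 10 transcripts called in epidermis became 112 with DESeq2 and 5 to 11 without 1 library (5 without EP07). The block changed the call of none of the 8 genes.

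Of the log2 fold changes, those of Cldn1, Cldn3, Cldn4, Cldn23, Ocln and F11r in culture and of Cldn4, F11r and Tjp1 in epidermis kept their sign in every alternative. With the EP-numbered libraries alone, Cldn23 and Ocln in epidermis turned to 0.24 and 0.26. Leaving out 1 library turned the sign of others: the range was -0.67 to 0.37 for Cldn7 and -0.21 to 0.10 for Tjp1 in culture, and in epidermis -0.39 to 0.00858 for Cldn1, -0.84 to 0.22 for Cldn3, -1.14 to 0.34 for Cldn7, -0.58 to 0.0840 for Cldn23 and -0.58 to 0.10 for Ocln. For the interaction the ranges were -0.14 to 0.25 for Cldn1, -0.0340 to 0.96 for Cldn3, -1.17 to 0.49 for Cldn7, -0.21 to 0.13 for Tjp1 and -0.0944 to 0.60 for Ocln. The cause was not tested.

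On the deposited FPKM and TPM, the log2 ratios of p63alpha tissue over culture were 0.42 for Cldn1, which reversed, -5.83 for Cldn3, -2.21 for Cldn4, 4.62 for Cldn23, -0.37 for Tjp1, -0.16 for Ocln and -0.72 for F11r, since the FPKM of a library summed to 433490 to 454905 and not to the same total as TPM. In CPM without length they were -3.02 for Cldn4, -1.12 for Tjp1, -0.91 for Ocln and -1.50 for F11r. The fewest counts were those of Cldn3 and Cldn7 in epidermis, at 3 to 50 a library.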
